A study of Mus musculus with 10 samples.

Results

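Gm-numbered genes are mouse loci that annotation pipelines predicted from genome and transcript evidence and that carry a running number in place of a name. Most are classed as long non-coding RNAs (lncRNAs), others as pseudogenes or as coding genes that have not been named. They were taken here as every transcribed unit (TU, a stretch of continuous nascent transcription on 1 strand, counted as a whole) that the authors annotated as "Single Gene", whose symbol was Gm followed by digits only, and which held more than 10 fragments in at least 2 of the 10 libraries. This gave 1787 TUs, out of 2189 with such a symbol, 28459 TUs that passed the same count rule and 40779 in all. Of the 402 Gm-numbered TUs left out, 313 exceeded 10 fragments in no library and 89 in 1 library, whose highest count was 11 to 29 fragments. Just inside the rule, 66 TUs exceeded it in exactly 2 libraries and had highest counts of 11 to 25 fragments. Below, these 1787 TUs are called Gm-numbered TUs.

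The assay was TT_chem-seq, by which nascent RNA made during a 10 min pulse of 2 mM 4-thiouridine is captured and sequenced. All libraries were of E14 cells, a mouse embryonic stem cell line, with the genotype SOX2-FKBP, in which SOX2 is fused to an FKBP domain, so that the small molecule dTAG-13 directs the protein to degradation. The control cells (not treated, NT) carried the same tag and received DMSO, and the other cells received 500 nM dTAG-13 for 0.5, 1, 2 or 6 hours (below written as h of depletion), with 2 libraries in each of the 5 groups. Per the methods of the study, the tagged cells were homozygous clones grown without serum with LIF and inhibitors of MEK and GSK3-beta, and untagged cells given dTAG-13 were not analysed here. The labels do not say whether replicates were separate cultures, so p-values measure the spread between libraries, which may be technical. In bulk libraries, fewer cells of a type and less RNA per cell cannot be told apart.

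LncRNA genes are transcribed by RNA polymerase II, as coding genes are, often from starts that they share with a coding gene on the other strand or from active enhancers, and much of their RNA is broken down soon after it is made. A short labelling pulse therefore reads the making of such RNA more directly than its stable pool. SOX2 is a transcription factor with an HMG box that binds a short motif in DNA, often beside OCT4, at promoters and enhancers of pluripotent cells.

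Promoter sequences are shown first for the 3 TUs with the smallest joint p among those called down at all 4 time points that have an entry in the RefSeq promoter table (build GRCm38.p6, the assembly of mm10). Each runs from 250 bases before to 50 after the annotated start that lies nearest to the start of the TU, written 5′ to 3′ on the strand of the gene. Capitals mark CATTGT, the core of the SOX motif, or its reverse complement.
Gm36038 (chr2:172576866-172577165, plus strand): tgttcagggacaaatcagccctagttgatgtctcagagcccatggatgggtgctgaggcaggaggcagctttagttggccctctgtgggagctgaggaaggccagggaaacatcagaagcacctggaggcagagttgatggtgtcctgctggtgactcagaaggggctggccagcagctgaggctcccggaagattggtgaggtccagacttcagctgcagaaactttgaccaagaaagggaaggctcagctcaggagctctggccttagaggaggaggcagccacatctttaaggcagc
Gm33006 (chr17:79667703-79668002, minus strand): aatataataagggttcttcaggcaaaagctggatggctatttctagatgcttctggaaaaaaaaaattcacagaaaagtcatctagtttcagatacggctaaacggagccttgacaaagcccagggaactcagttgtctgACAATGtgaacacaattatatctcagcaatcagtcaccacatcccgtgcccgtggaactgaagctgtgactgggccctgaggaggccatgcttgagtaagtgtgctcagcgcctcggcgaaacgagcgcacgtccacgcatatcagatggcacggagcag
Gm32534 (chr6:82714881-82715180, minus strand): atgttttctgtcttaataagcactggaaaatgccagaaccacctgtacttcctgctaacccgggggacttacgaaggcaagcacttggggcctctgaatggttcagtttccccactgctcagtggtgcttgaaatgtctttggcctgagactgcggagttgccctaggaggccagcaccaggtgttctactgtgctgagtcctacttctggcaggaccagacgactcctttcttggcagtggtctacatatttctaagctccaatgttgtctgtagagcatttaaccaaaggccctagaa
The annotated start lay 199 bases inside the TU of Gm36038, 123 bases before the start of the TU of Gm32534 and 13489 bases before that of Gm33006. For Gm33006 the letters printed are thus the annotated promoter, far from the place where nascent RNA began.

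The core CATTGT was searched on both strands in all 32851 promoters of the table and was present in 12.6% of them, and in at least 1 promoter of 14.3% of the 27025 genes listed. Of the 20 TUs called down at all 4 time points, 15 had a promoter entry, and 7 of these genes (46.7%) held the core. In larger sets of Gm-numbered genes with an entry, it was held by 22.9% of 70 down at 1 h and 19.2% of 146 down at 6 h. It was held by 5.77% of 52 up at 6 h and 12.5% of 951 called at no time point. The octamer ATGCAAAT, the core motif of OCT4, does not overlap CATTGT in letters and was present in 1.74% of all promoters and in 1 of the 15 genes. Among the 1188 Gm-numbered genes with an entry, 13.2% held the core and 2.95% the octamer. Each match is shown with 10 bases on either side, the motif in capitals, because these are the annotated promoters of genes whose TUs were called down from 0.5 h on.
Gm13128 (chr4:144330017-144330042, plus strand): aatggatgggACAATGgtgaacatga
Gm20939 (chr17:94864696-94864723, plus strand): aaatacaaaaATGCAAATccctgtagat
Gm30605 (chr8:80395311-80395336, minus strand): gacaaagtcaCATTGTaacagtaagg
Gm32441 (chr19:56664676-56664701, minus strand): gttttacatcACAATGgctgctctat
Gm33006 (chr17:79667847-79667872, minus strand): cagttgtctgACAATGtgaacacaat
Gm33105 (chr4:33902437-33902462, minus strand): ggggaaggctCATTGTgcatggtacc
Gm35089 (chr5:109866824-109866849, minus strand): tgcttctcccCATTGTtttcagtgac
Gm6792 (chr7:6255821-6255846, plus strand): tgatcttgatCATTGTagtgctttga
The matches began 65 to 231 bases before an annotated start, but most lay far from the start of the TU. They lay 25983 bases before it for Gm30605, 13599 for Gm33006, 1823 for Gm6792 and 233 for Gm35089. The others lay inside the TU, 5027 bases from its start for Gm32441, 3044 for Gm13128, 1399 for Gm33105 and 69 for the octamer of Gm20939. Windows of the same length were also placed at the start of the TU itself. There the core was present in 3 of the 20 TUs (15%), namely Gm32534, Gm35089 and Gm32441. It was present in 11% of all Gm-numbered TUs and 8.16% of other Single Gene TUs. For the 196 TUs called down at 6 h the share was 15.3%, and for the 81 called up 11.1%. A match of these letters is a description and not a binding site.

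In the RefSeq annotation, 1671 of the 1787 TUs were found by accession, symbol or synonym, and 1383 of them were lncRNAs, 177 protein-coding genes, 55 transcribed pseudogenes, 43 other pseudogenes, 12 miscellaneous RNAs and 1 of another type. Of the TUs found, 65 now carry another symbol, 56 of which are no longer Gm-numbered. Gm13128, for example, is now Pramel30, a member of the PRAME-like family, and Gm6792 is now Epp13. The median TU was 12576 bp long, against 28246 bp for the 13192 other Single Gene TUs. The median of the mean fragments per library was 44.4, against 446.8 for the others, so that most Gm-numbered TUs were counted with far less precision. All 1787 together took 2.53% and 2.61% of the fragments in the NT libraries and 2.37% to 2.54% in the depleted libraries.

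A symbol did not always name most of what its TU held. The gene of the TU's own name lay on the same strand inside 1644 of the TUs, where it covered a median of 61.9% of the length. Another RefSeq gene on the same strand covered at least 50% of the TU in 199 cases (11.1%), and 1323 (74%) held no other gene on their strand. The TU named Gm38876 lay to 99.9% within Vgll4, which encodes a cofactor that restrains TEAD factors, and only 4.93% of it was Gm38876. The TUs named Gm30427 and Gm40235 held the bodies of Msn (moesin, 80.8% of the TU) and Ptprf (a receptor tyrosine phosphatase, 81.4%) behind the annotated starts of Gm30427 and Gm40235. By the study's methods, a TU was split at an annotated start inside it that was followed by more coverage. The TUs of Gm30427 and Gm40235 begin 11 bp after the TUs named Msn and Ptprf, whereas no TU adjoins that of Gm38876 upstream. In all, 240 Gm-numbered TUs (13.4%) began at most 20 bp after the end of a Single Gene TU on their own strand.

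To ask how transcription of these loci followed SOX2 depletion, the libraries of each time were set against NT (edgeR quasi-likelihood F-test, Benjamini-Hochberg adjusted p under 0.05 over all 28459 TUs). At 0.5 h, 20 Gm-numbered TUs were called down (1.12%, against 0.787% of all TUs tested) and 8 up (0.448%, against 0.527%). At 1 h, 93 were called down (5.20%, against 3.61%) and 29 up (1.62%, against 2.15%). At 2 h the calls were 139 down (7.78%, against 5.57%) and 68 up (3.81%, against 4.26%), and at 6 h 196 down (11%, against 9.20%) and 81 up (4.53%, against 6.61%). Decreases were thus 71.4%, 76.2%, 67.1% and 70.8% of the calls, beside 59.9%, 62.7%, 56.6% and 58.2% over all TUs. The median log2 fold changes were -0.014, -0.071, -0.045 and -0.044, beside -0.022, -0.043, -0.040 and -0.036 over all TUs. Single TUs moved both ways around these signed medians. At 6 h the 10th and 90th percentiles were -1.01 and 0.577, beside -1.03 and 0.543 over all TUs. Calls over 2-fold were 10 down (0.560%, against 0.404% of all TUs) and 3 up (0.168%, against 0.123%) at 0.5 h, and 63 down (3.53%, against 2.17%) and 4 up (0.224%, against 0.397%) at 1 h. They were 89 down (4.98%, against 3.40%) and 23 up (1.29%, against 0.903%) at 2 h, and 133 down (7.44%, against 6.00%) and 27 up (1.51%, against 1.63%) at 6 h. In 193 TUs (10.8%, against 8.67% of all TUs) the 8 depleted libraries all lay below both NT libraries in CPM (the fragment count scaled to the effective size of its library), and in 111 (6.21%, against 5.91%) all lay above. The joint test over the 4 time points called 244 (13.7%, against 12.3%).

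The counts changed when single libraries were left out. Without NT replicate 2, 6 Gm-numbered TUs were down and 0 up at 0.5 h, 50 and 11 at 1 h, 74 and 25 at 2 h, and 113 and 33 at 6 h, and the joint test called 159. Beside the 0 up at 0.5 h by edgeR, 194 Gm-numbered TUs had an unadjusted p under 0.05 in either direction. Without NT replicate 1, 13 were down and 1 up at 0.5 h, 18 up at 1 h and 35 up at 2 h. Omission of 0.5 h replicate 1 left 8 down and 4 up at that time, and omission of replicate 2 left 7 and 2. For 1 h, replicate 1 set aside gave 43 down and 10 up, and replicate 2 set aside gave 60 and 11. Omission of 2 h replicate 1 left 76 down and 32 up at 2 h, and omission of 2 h replicate 2 gave 47 up at 1 h. For 6 h, replicate 1 set aside gave 130 down and 49 up, and replicate 2 set aside gave 123 and 50. DESeq2 called 16 down and 13 up at 0.5 h and 64 and 36 at 1 h, which makes 55.2% and 64% of them decreases. With library totals in place of TMM factors, 80.2% of the calls at 2 h were decreases, while the median of all TUs moved from -0.040 to -0.155 and that of Gm-numbered TUs to -0.163.

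Markers of cell types were read beside these calls. All 10 stem cell markers had a TU, with a summed level of 72.8 and 80.7 CPM per kb in the NT libraries and 63.4 and 66.5 at 6 h. Neural markers (2 of 4 with a TU, Pax6 and Tubb3) stood at 1.59 and 1.84 in NT, 1.78 to 1.99 at 0.5 and 1 h, 1.15 and 1.26 at 2 h, and 0.842 and 0.986 at 6 h. Trophoblast markers (2 of 4 with a TU) stood at 0.226 and 0.261 in NT, 0.717 to 0.965 from 0.5 to 2 h, and 0.379 and 0.458 at 6 h. Nearly all of that level in NT was Eomes (0.235 of 0.244), while Cdx2 missed the count rule and Elf5 and Krt7 had no TU. Endoderm, feeder and 2-cell-like markers stayed between 0.0519 and 0.345 in all libraries. The part of such shifts in the calls of Gm-numbered TUs was not tested.

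Against the other Single Gene TUs, most of which are coding genes, the balance of calls differed, less so once mean counts were taken into account. Of the 13192 others, 0.758% were called down and 0.887% up at 0.5 h, 3.34% and 3.81% at 1 h, 5.0% and 7.30% at 2 h, and 7.29% and 11.2% at 6 h. Their medians were 0.0088, 0.034, 0.055 and 0.082. Because call rates depend on the number of fragments, the others were also weighted to the 4 classes of mean count that the Gm-numbered TUs held. The weighted shares down were 0.557%, 2.92%, 4.76% and 7.35%, and those up 0.451%, 2.16%, 4.31% and 7.69%. With classes of doubled width they were 0.59%, 2.89%, 4.45% and 7.07% down and 0.535%, 2.48%, 5.22% and 8.56% up. Decreases thus outnumbered increases among the weighted others at 0.5 and 1 h with either set of classes and not at 6 h, and at 2 h the order turned with the classes. At 6 h, 15.6% of the 499 Gm-numbered TUs with 50 to under 200 fragments were down, against 8.67% of 2411 others, and 14.3% of the 336 with 200 fragments or more, against 7.03% of 8677 others. Under 20 fragments the shares were 6.84% of 512 and 6.60% of 955. Increases at 6 h made up 1.76% of Gm-numbered TUs and 3.98% of others under 20 fragments, 2.5% and 6.44% from 20 to under 50, 3.81% and 8.92% from 50 to under 200, and 12.5% and 13.2% in the highest class. These shares were counted and the differences were not tested.

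**Figure D1:**
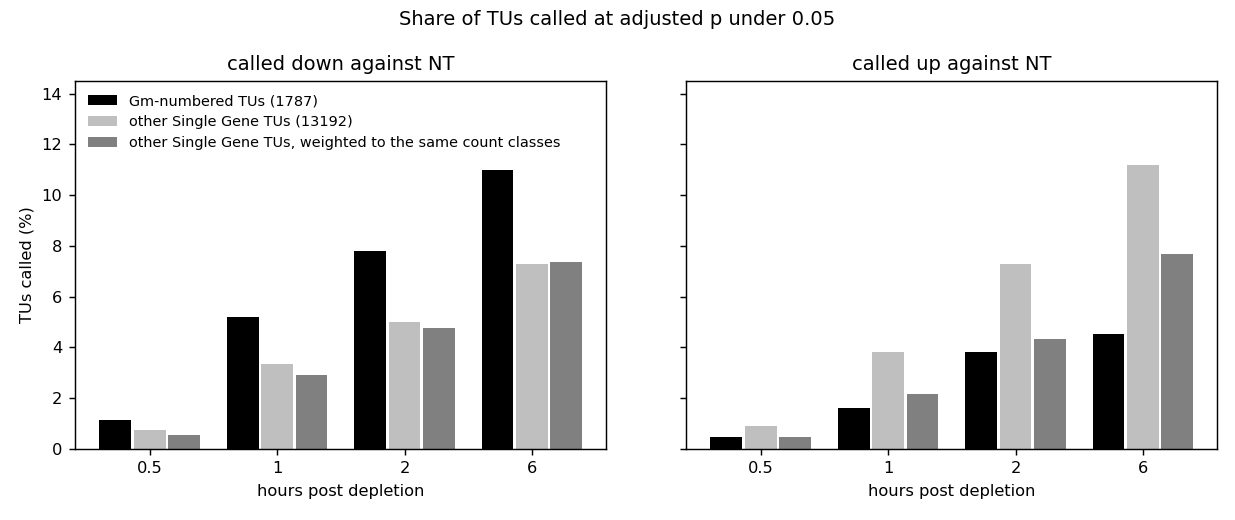
Share of TUs (%) called down (left) and up (right) against NT at each time point, for 1787 Gm-numbered TUs (black), 13192 other Single Gene TUs (light grey) and the same others weighted to the count classes of the Gm-numbered TUs (dark grey). At 6 h the black bars stand at 11% down and 4.53% up, and the weighted bars at 7.35% and 7.69%.

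The shares were also read by type of gene. At 6 h, 12% of the 1383 lncRNAs among the Gm-numbered TUs were down and 4.48% up, beside 10.7% and 6.30% of the 825 other lncRNAs, which carry a name or another kind of symbol. Of the 177 protein-coding Gm-numbered genes, 10.2% were down and 5.65% up, beside 7.01% and 11.7% of 11977 other protein-coding genes. Among the 55 transcribed pseudogenes, 1 was down (1.82%) and 4 were up (7.27%) at 6 h, beside 6 down (10.0%) and 1 up (1.67%) of the 60 other transcribed pseudogenes, numbers too small to rank. Among the 43 other pseudogenes that are Gm-numbered, 1 was down and 1 up.

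The TUs were also split by what else they held, a split that was chosen after the annotation of the leading TUs had been seen. Among the 1323 TUs with no other gene on their strand, 150 were down (11.3%) and 37 up (2.80%) at 6 h, with a median log2 fold change of -0.075. Among the 199 TUs with another gene over at least 50% of their length, 13 were down (6.53%) and 33 up (16.6%), with a median of 0.201. At 1 h, 72 were down (5.44%) and 12 up (0.907%) in the first set. In the second, 7 were down (3.52%) and 12 up (6.03%), beside 3.61% and 2.15% of all TUs. Those that held another gene over less of their length (265 TUs) had 33 down (12.5%) and 11 up (4.15%) at 6 h. Over all TUs, 9.20% were down and 6.61% up at 6 h. The sets were not matched by mean count.

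**Figure D2:**
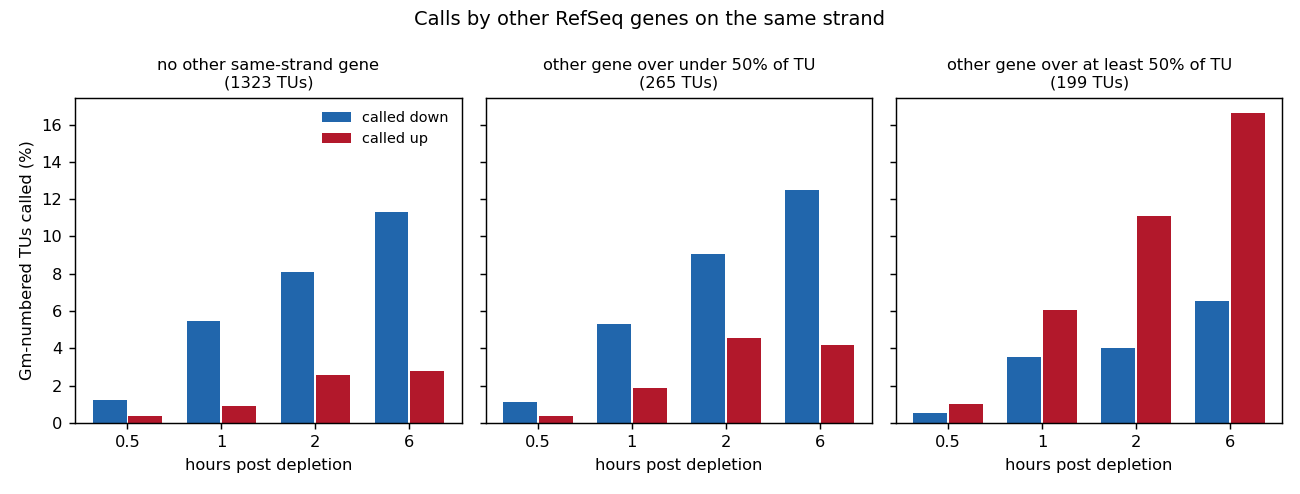
Share of Gm-numbered TUs (%) called down (blue) and up (red) against NT at each time point, split by how much of the TU another RefSeq gene on the same strand covers. At 6 h, 11.3% were down and 2.80% up where there was no such gene, and 6.53% down and 16.6% up where it covered at least 50%.

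Altogether 335 Gm-numbered TUs (18.7%, against 18.8% of all TUs) were called at 1 time point or more and 1452 at none, so the share called at any time was near that of the series. The 4 comparisons share the NT libraries, so likeness between them is in part built in. Direct comparison of 6 with 1 h, which uses no NT library, found 58 Gm-numbered TUs lower at 6 h (3.25%, against 2.92% of all TUs) and 28 higher (1.57%, against 1.96%). These counts fell to 29 and 9 without 1 h replicate 1, to 19 and 7 without 1 h replicate 2, and to 21 and 9 without 6 h replicate 1, and 25 were lower without 6 h replicate 2.

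**Figure D3:**
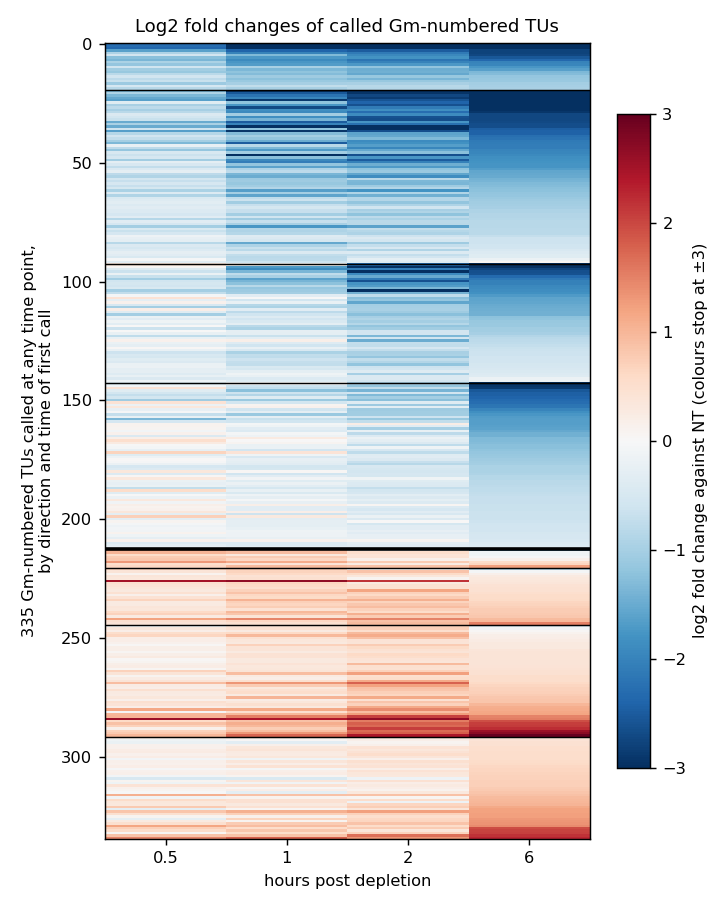
Log2 fold change against NT (colour, stopping at ±3) of the 335 Gm-numbered TUs (rows) called at any time point, at 0.5, 1, 2 and 6 h (columns), ordered by direction and time of first call. Of these TUs, 215 were ever called down (12% of Gm-numbered TUs, against 10.4% of all TUs) and 122 ever called up (6.83%, against 8.46%), so a few were called in both directions.

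Called down at all 4 time points were 20 Gm-numbered TUs (1.12%, against 0.766% of all TUs), and 1 was called up at all 4 (0.056%, against 0.228%). These were the 20 called down at 0.5 h. Among them, 16 are lncRNAs and 4 protein-coding genes (Gm21992, Gm20939, Gm6792 and Gm13128). The number was 6 without NT replicate 2, 13 without NT replicate 1, 8 and 7 without 0.5 h replicates 1 and 2, 26 and 25 without 2 h replicates 1 and 2, and 16 with DESeq2. The 1 up at all 4 time points became 0 without NT replicate 1, NT replicate 2 or 0.5 h replicate 1, and 4 without either 2 h library or with DESeq2. The plot of CPM by library shows 4 of them, Gm33006, Gm41458, Gm36038 and Gm32534.

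Gm33006, an lncRNA, fell fastest (TU on chromosome 17, 79648027 to 79654263, minus strand). The TU had 99 and 112 fragments in the NT libraries, 14 and 7 at 0.5 h, 2 and 2 at 1 h, and 1 and 1 at both 2 and 6 h. No depleted library came near the NT libraries. Its level was 7.40 ± 1.0 CPM in NT (SD, n = 2) and 0.573 ± 0.037 at 0.5 h, a log2 fold change of -3.69 ± 0.29 (edgeR, adjusted p 1.9e-05). The 2 fragments at 6 h were 0.865% of the NT level, with an exact 95% interval of 0.104% to 3.16% that covers counting error only. The promoter shown above belongs to an annotated start upstream of the TU, and 27.7% of the TU overlaps the annotated gene.

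Gm41458 lies opposite the testis-related gene Morc1 (chromosome 16, 48593419 to 48613897, minus strand). It had 11.8 and 12 CPM in NT, 4.02 and 3.59 at 0.5 h, 2.32 and 2.16 at 1 h, 1.97 and 2.28 at 2 h, and 1.83 and 1.63 at 6 h. Most of the fall was in place at 0.5 h, where the log2 fold change was -1.63 ± 0.19 (edgeR, adjusted p 4.1e-04), and it reached -2.79 ± 0.21 at 6 h (5.6e-07). The Morc1 TU changed by -0.15 ± 0.12 at 0.5 h (adjusted p 0.81) and by -0.46 ± 0.12 at 6 h (adjusted p 0.019).

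Gm36038 fell in steps (chromosome 2, 172576916 to 172624654, plus strand, with the promoter shown above). It had 167 and 170 CPM in NT, 111 and 117 at 0.5 h, 69.5 and 65.9 at 1 h, 43.6 and 44.5 at 2 h, and 28.3 and 22.7 at 6 h. The groups did not overlap. The log2 fold change at 6 h was -2.73 ± 0.12 against NT (edgeR, adjusted p 2.2e-09) and -1.41 ± 0.11 against 1 h (adjusted p 8.8e-06). Its call at 0.5 h (-0.57, adjusted p 0.014) was lost without NT replicate 1, NT replicate 2, 0.5 h replicate 1 or 0.5 h replicate 2. Gm35982, a Gm-numbered lncRNA that starts 324 bp away on the other strand, held 29 and 39 fragments in NT and 0 and 4 at 6 h. It was called down at 1 h (-2.22 ± 0.45, adjusted p 0.0078), 2 h and 6 h (-4.16 ± 0.60, adjusted p 2.2e-04).

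Gm32534 begins 11 bp after the end of the TU of Hk2, the hexokinase of the first step of glycolysis, on the same strand (chromosome 6, 82652876 to 82714807, minus strand). It had 116 and 118 CPM in NT, 77.7 and 77.2 at 0.5 h, 60.9 and 57.8 at 1 h, 50.001 and 53.2 at 2 h, and 35.7 and 33.8 at 6 h. Again no groups overlapped, and the log2 fold change went from -0.59 ± 0.09 at 0.5 h (edgeR, adjusted p 0.0057) to -1.75 ± 0.10 at 6 h (5.7e-08). The call at 0.5 h was lost without NT replicate 2 or 0.5 h replicate 2. The Hk2 TU changed by 0.13 at 0.5 h and 0.022 at 1 h (adjusted p of 0.81 and 0.94) and by -0.45 ± 0.10 at 6 h (adjusted p 0.0067). Only 6.5% of the Gm32534 TU is the annotated gene, and whether RNA from the end of Hk2 is counted in it was not tested.

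Other members of the 20 fell early and were no lower at 6 h than at 1 h by the test. Gm35089 had 47.9 and 53.1 CPM in NT, 22.6 and 25.5 at 0.5 h, and 23.3 and 26.2 at 6 h, with log2 fold changes of -1.08 ± 0.14, -1.01 ± 0.14, -0.96 ± 0.13 and -1.03 ± 0.14 (edgeR, adjusted p of 8.7e-04, 3.1e-04, 2.7e-04 and 1.1e-04). Its partner on the other strand, LOC105246961, which starts 110 bp away, was not called at any time point. Gm20939, a protein-coding gene, went from 71.3 and 65.4 CPM in NT to 41 and 35.6 at 0.5 h and 37 and 32.8 at 6 h (-0.83 ± 0.11 and -0.97 ± 0.11, adjusted p of 0.0013 and 2.9e-05). Gm32985, whose start is 2099570 bp from that of the nearest Single Gene TU, had 128 and 127 CPM in NT, 82.9 and 64.7 at 0.5 h, 56.8 and 52.4 at 1 h, 49.1 and 49.9 at 2 h, and 55.7 and 60.5 at 6 h. Its log2 fold changes were -0.78 ± 0.12, -1.22 ± 0.12, -1.36 ± 0.12 and -1.13 ± 0.12 (edgeR, adjusted p of 0.0031, 1.9e-05, 3.9e-06 and 1.2e-05), so its level was lower at 1 and 2 h than at 0.5 h, a step that was not tested. The differences between 6 and 1 h were -0.021 for Gm35089, 0.013 for Gm20939 and 0.091 for Gm32985, none of which passed the test.

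Of the remaining TUs, Gm36834 had 53 and 54 fragments in NT, 22 and 7 at 0.5 h and 2 and 0 at 6 h, and Gm33105 had 41 and 28 in NT, 16 and 2 at 0.5 h and 4 and 3 at 6 h. Their log2 fold changes at 0.5 h were -2.28 ± 0.37 and -2.35 ± 0.43 (edgeR, adjusted p of 0.0058 and 0.012), the largest of the 20 after Gm33006. The others were Gm30605, Gm31340, Gm39024, Gm6792, Gm12925, Gm21992, Gm13128, Gm30875, Gm30306, Gm39962 and Gm32441, with log2 fold changes of -0.50 to -1.37 at 0.5 h. Gm30605 (-0.92 ± 0.21, adjusted p 0.048) and Gm39962 (-0.67 ± 0.15, adjusted p 0.045) were nearest to the threshold. The calls of Gm33006, Gm41458, Gm35089, Gm20939 and Gm32985 at 0.5 h held whichever single library was left out, and each of the others was lost without at least 1 library of NT or 0.5 h.

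**Figure D4:**
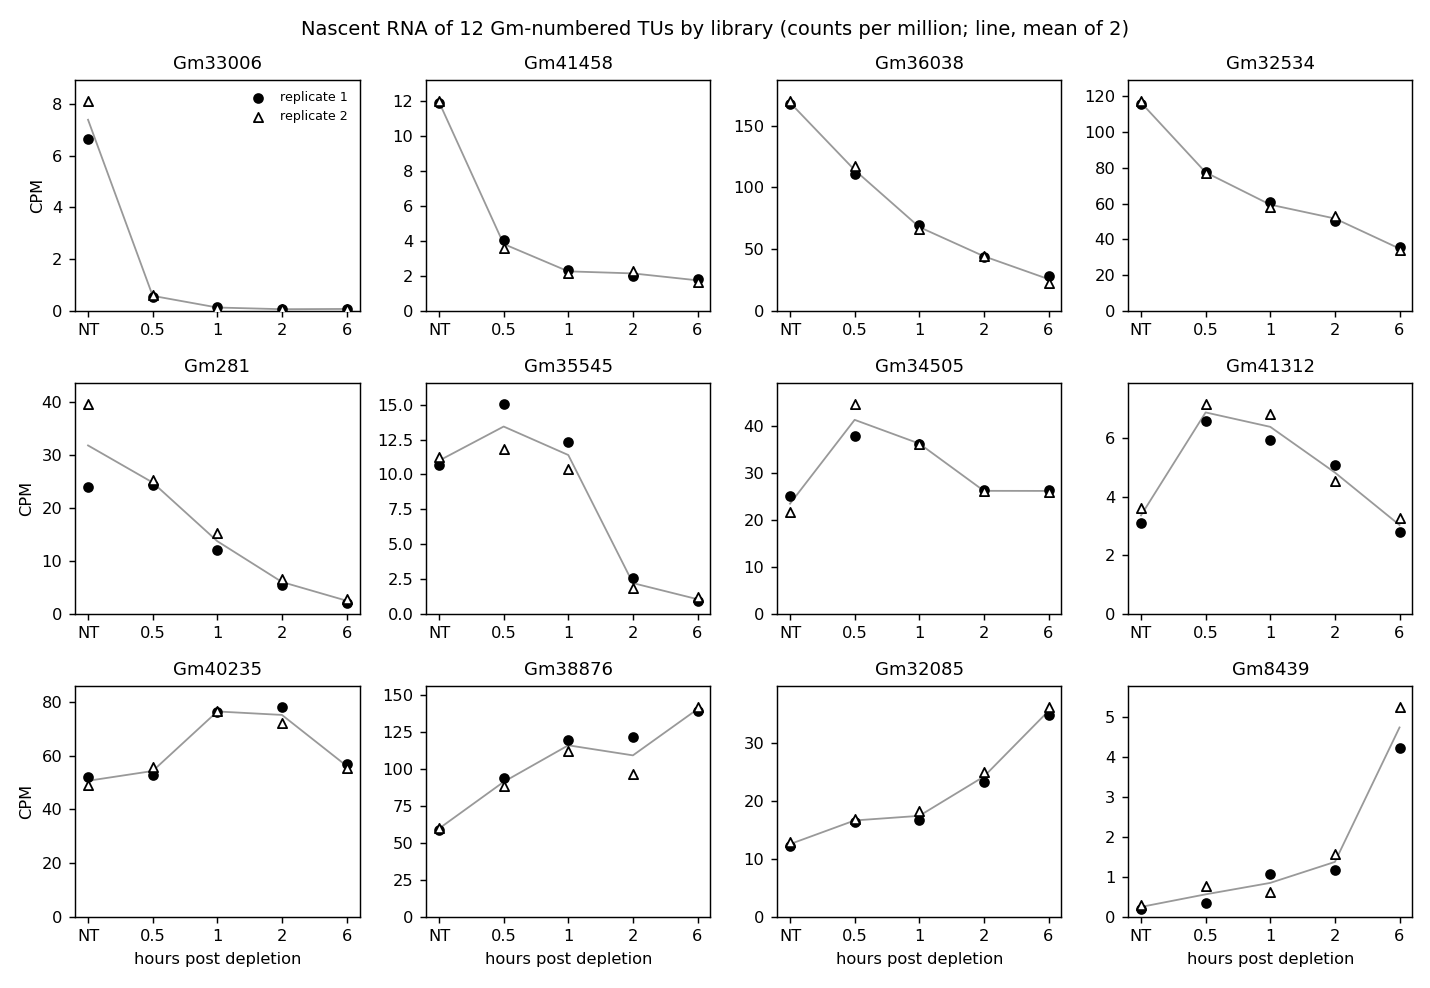
CPM of 12 Gm-numbered TUs in the NT and depleted libraries (replicate 1, filled circles; replicate 2, open triangles; line, mean of 2), each panel from 0 on its own linear scale and with time points evenly spaced. The top row holds TUs down at all 4 time points. The middle row holds 2 TUs that were not called at 0.5 h and fell later, and 2 early rises. The bottom row holds 1 passing rise and 3 lasting rises.

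Some TUs were not called at 0.5 h and fell later. Gm35545, an lncRNA (chromosome 16, 19177157 to 19265465, plus strand), had 10.7 and 11.3 CPM in NT, 15.1 and 11.8 at 0.5 h, 12.4 and 10.4 at 1 h, 2.58 and 1.81 at 2 h, and 0.913 and 1.16 at 6 h. The libraries up to 1 h were near or above NT, and those from 2 h all lay far below. The log2 fold change was 0.051 ± 0.18 at 1 h (edgeR, adjusted p 0.92), -2.31 ± 0.21 at 2 h (7.5e-06) and -3.38 ± 0.25 at 6 h, and 6 differed from 1 h by -3.43 ± 0.25 (adjusted p 3.6e-06). The nearest TU, Gm41430, whose start is 94297 bp away on the same strand, changed by -1.83 ± 0.24 at 1 h (adjusted p 2.2e-04) and by -2.74 ± 0.26 at 6 h (adjusted p 5.1e-06).

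Gm281, a protein-coding gene (chromosome 14, 13793134 to 13914699, minus strand), had 23.9 and 39.6 CPM in NT, 24.2 and 25.3 at 0.5 h, 12 and 15.3 at 1 h, 5.36 and 6.60 at 2 h, and 2.11 and 2.80 at 6 h. The NT libraries differed from each other, and those at 0.5 h lay within their range. From 1 h on all libraries lay below NT, with log2 fold changes of -1.21 ± 0.20, -2.41 ± 0.22 and -3.68 ± 0.25 (edgeR, adjusted p of 0.0019, 6.1e-06 and 2.5e-07). Against 1 h, the 6 h libraries differed by -2.47 ± 0.26 (adjusted p 6.1e-05). Its nearest TU, that of Thoc7, a subunit of the THO complex of mRNA export, was not called at any time point.

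Among TUs that rose, some rose early and returned toward NT. Gm34505, a TU for which RefSeq held no gene of that name and which lies to 51% within Grtp1 (chromosome 8, 13188294 to 13212734, minus strand), had 25.2 and 21.8 CPM in NT, 38 and 44.8 at 0.5 h, 36.3 and 36.3 at 1 h, 26.3 and 26.1 at 2 h, and 26.3 and 26.1 at 6 h. It was called up at 0.5 and 1 h (0.81 ± 0.12 and 0.63 ± 0.12, edgeR, adjusted p of 0.0027 and 0.0045), though neither call held without NT replicate 2, and lower at 6 than at 1 h (-0.47 ± 0.12, adjusted p 0.031), a call lost without any 1 of the 4 libraries of 1 and 6 h. The TU opposite it, 2810030D12Rik, was also up at 0.5 h (1.12, adjusted p 0.012).

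Gm41312, a lightly transcribed lncRNA (chromosome 15, 41304572 to 41348501, minus strand), had 3.10 and 3.63 CPM in NT, 6.60 and 7.18 at 0.5 h, 5.96 and 6.83 at 1 h, 5.11 and 4.56 at 2 h, and 2.81 and 3.26 at 6 h. The depleted libraries lay above NT up to 2 h and within or below its range at 6 h. It was called up at 0.5 h (1.03 ± 0.20, edgeR, adjusted p 0.018) and 1 h (0.93 ± 0.20, adjusted p 0.011), and the 6 h libraries differed from those of 1 h by -1.07 ± 0.20 (adjusted p 0.0057). The call at 0.5 h was lost without either NT library or either library of 0.5 h, that at 1 h without NT replicate 1 or 1 h replicate 2, and the last without 1 h replicate 2 or 6 h replicate 1.

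The TU named Gm40235, in the body of Ptprf (chromosome 4, 118196980 to 118257481, minus strand), had 52.2 and 49.2 CPM in NT, 52.7 and 55.9 at 0.5 h, 76.3 and 76.8 at 1 h, 78.2 and 72.2 at 2 h, and 57.0 and 55.4 at 6 h. Its log2 fold change was 0.59 ± 0.10 at 1 h and 0.57 ± 0.10 at 2 h (edgeR, adjusted p of 0.0017 and 0.0015) and 0.15 ± 0.10 at 6 h (adjusted p 0.33). Its difference between 6 and 1 h (-0.44 ± 0.10, adjusted p 0.015) was lost without any 1 of the 4 libraries compared. The TU named Ptprf, which ends 11 bp before it, changed by 0.60 ± 0.11 at 1 h (adjusted p 0.0042). In the same way, the TU named Gm30427, in the body of Msn, rose by 0.85 ± 0.11 at 1 h (adjusted p 2.7e-04) and the upstream TU named Msn by 0.74 ± 0.13 (adjusted p 0.0031). At both loci the TU with the coding symbol and the TU with the Gm symbol were thus up at 1 h.

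The TU named Gm38876, within Vgll4 (chromosome 6, 114865010 to 114970131, minus strand), was the one called up at all 4 time points. It had 58.9 and 60.2 CPM in NT, 93.7 and 88.4 at 0.5 h, 119 and 112 at 1 h, 121 and 96.4 at 2 h, and 139 and 142 at 6 h. Every depleted library lay above both NT libraries. The log2 fold changes were 0.61 ± 0.12, 0.96 ± 0.12, 0.87 ± 0.11 and 1.24 ± 0.12 (edgeR, adjusted p of 0.014, 1.4e-04, 1.6e-04 and 4.3e-06), and the first call was lost without NT replicate 1, NT replicate 2 or 0.5 h replicate 1. The TU opposite, that of the autophagy gene Atg7, was not called.

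Of the rises in TUs with no other gene over much of their length, that of Gm32085 grew with time. The TU of this lncRNA (chromosome 3, 152697677 to 152714088, plus strand) had 12.2 and 12.9 CPM in NT, 16.4 and 16.8 at 0.5 h, 16.6 and 18.2 at 1 h, 23.3 and 25 at 2 h, and 34.8 and 36.2 at 6 h. At 6 h it was up by 1.50 ± 0.12 against NT (edgeR, adjusted p 9.8e-07) and by 1.03 ± 0.11 against 1 h (adjusted p 1.0e-04). Pigk, a subunit of the enzyme that attaches GPI anchors, begins just after it on the same strand and was up by 0.54 ± 0.12 at 6 h (adjusted p 0.0049). The TU named Gm31416, on chromosome 10, had 15.9 and 16.1 CPM in NT and 30.6 and 31.9 at 6 h (0.97 ± 0.12, adjusted p 4.3e-05), and 6 and 1 h did not differ by the test (0.34 ± 0.11, adjusted p 0.097). The RefSeq gene of this name covers only 4.72% of this TU. In the authors' annotation its transcript runs from 66832184 to 66911531, over most of the TU (66830474 to 66911531, minus strand). The TU begins 11 bp after the end of the TU of 1110002J07Rik, which was up by 0.84 ± 0.14 at 6 h (adjusted p 8.5e-04). Whether RNA from the end of 1110002J07Rik is counted in the TU of Gm31416 was not tested.

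Gm31560, an lncRNA on chromosome 17, went against its neighbour. It had 19.1 and 18.6 CPM in NT, 27.4 and 33.3 at 1 h, 36 and 49.7 at 2 h, and 24.9 and 27 at 6 h, with log2 fold changes of 0.69 ± 0.15 at 1 h and 1.18 ± 0.15 at 2 h (edgeR, adjusted p of 0.014 and 1.4e-04). The call at 1 h was lost without NT replicate 1, NT replicate 2 or 1 h replicate 2, and with library totals. The TU of Notch4, a receptor of the Notch pathway that starts 19222 bp away on the same strand, changed by -0.91 ± 0.22 at 1 h and -1.43 ± 0.22 at 2 h (adjusted p of 0.020 and 6.6e-04).

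Gm8439, a protein-coding gene (chromosome 4, 120588676 to 120606038, plus strand), was at 3 and 4 fragments in NT and rose late, to 9 and 9 at 0.5 h, 17 and 11 at 1 h, 23 and 27 at 2 h, and 60 and 90 at 6 h. Its log2 fold change was 2.44 ± 0.52 at 2 h (edgeR, adjusted p 0.0070, lost without either NT library) and 4.24 ± 0.44 at 6 h (adjusted p 1.2e-05), and 6 h exceeded 1 h by 2.49 ± 0.34 (adjusted p 5.1e-04). Ctps, which encodes CTP synthase and starts 18374 bp away on the other strand, was up by 0.82 ± 0.13 at 6 h (adjusted p 3.9e-04).

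The Gm-numbered TUs with the highest level per length were not lncRNAs. In CPM per kb of the NT libraries, Gm14680, now named Sms-ps, a pseudogene of spermine synthase, stood at 83, the pseudogene Gm9794 at 63.1, and Gm21992 at 27.7. Both pseudogenes are short copies of other genes, and reads that could not be placed were removed by mapping quality, so their levels are uncertain. Gm14680 had 116 and 115 CPM in NT and 93.9 and 101 at 6 h (-0.25 ± 0.10, edgeR, adjusted p 0.12), and Gm9794 28.1 and 35.2 in NT and 57.8 and 31.4 at 6 h (0.49 ± 0.22, adjusted p 0.14). Gm21992 is a gene model that runs over Rbm14, an RNA-binding protein and nuclear coactivator, and Rbm14 covers 59.3% of the TU. It had 499 and 534 CPM in NT, 365 and 368 at 0.5 h, and 245 and 270 at 6 h (-1.01 ± 0.10, adjusted p 8.8e-06). Its call at 0.5 h (-0.50, adjusted p 0.022) was lost without either NT library, either 0.5 h library or either 1 h library.

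Because many of these loci lie beside other genes, the nearest Single Gene TU by distance between starts was read for each. The median distance was 18832 bp, against 21100 bp for the other Single Gene TUs. On the other strand, 765 Gm-numbered TUs (42.8%, against 45.9% of the others) overlapped a TU. For 298 (16.7%, against 16.3%), a TU on the other strand started within 1000 bp. At 0.5 h, the nearest TU was called down for 0 of the 20 Gm-numbered TUs called down, and up for 1 of the 8 called up. It was down for 0.682% and up for 1.59% of the 1759 that were not called. At 1 h it was called down for 32 of the 93 that were down (34.4%) and up for 0, and down for 2.52% and up for 5.35% of the 1665 that were not called. At 6 h it was down for 66 of the 196 that were down (33.7%) and up for 6, and it was up for 34 of the 81 that were up (42%) and down for 2. Around the 1510 not called at 6 h, 6.56% of the nearest TUs were down and 12.4% up.

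Close TUs were then set aside. Where the TUs lay at least 5000 bp apart, the nearest TU was down for 13 of the 50 Gm-numbered TUs down at 1 h (26%) and 25 of the 109 down at 6 h (22.9%), beside 2.85% and 7.99% of those not called. Without regard to distance, as in the shares of 34.4% and 33.7% above, the count was also made for the other Single Gene TUs. Their nearest TU was down for 23.6% of the 440 down at 1 h and 25.3% of the 962 down at 6 h, beside 2.82% and 6.24% of those not called. It was up for 17.9% of the 1471 up at 6 h, beside 7.8% of those not called. Among Gm-numbered TUs at least 5000 bp apart, the nearest TU was up for 15 of the 49 up at 6 h (30.6%), beside 13.9% of those not called. The calls of both TUs come from the same libraries, and their likeness was counted and not tested. For the 20 TUs down at all 4 time points, the nearest TU was down for 0, 3, 5 and 6 of them at 0.5, 1, 2 and 6 h. Of the 100 other Single Gene TUs down at 0.5 h, 12% had a nearest TU that was down at that time.

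**Figure D5:**
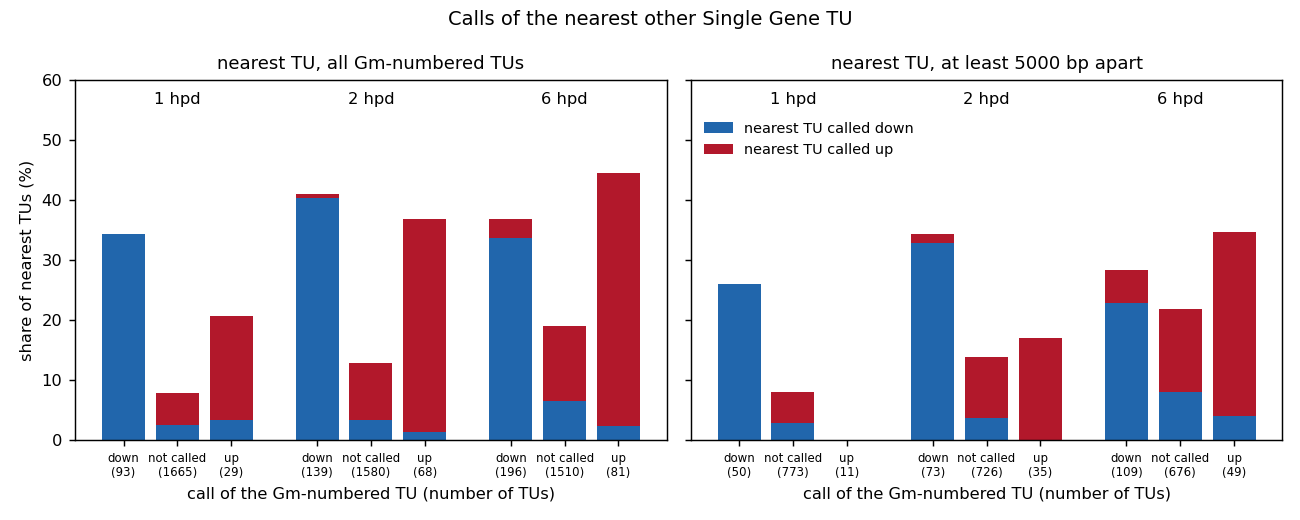
Share (%) of nearest Single Gene TUs that were called down (blue) or up (red, stacked) at 1, 2 and 6 h, by the call of the Gm-numbered TU (number of TUs in brackets), for all Gm-numbered TUs (left) and for those at least 5000 bp from the nearest TU (right). For Gm-numbered TUs down at 1 h, 34.4% of nearest TUs were down and 0 up.

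The libraries held 11131490 to 25854106 fragments, and replicate pairs had a Pearson's r of 0.985 to 0.99 in log2 CPM over TUs (TUs are not independent).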

How the data were processed

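TT_chem-seq libraries of nascent RNA were made by the authors from SOX2-FKBP cells treated with DMSO (NT) or dTAG-13, with 2 libraries in each of 5 groups. The table holds counts of fragments per TU, deposited by the authors without normalisation. Per the methods and the submitters' processing notes, reads were mapped to mm10 with BWA 0.7.17-r1188, filtered by mapping quality with SAMtools 1.10, and freed of duplicates with Picard 2.12.0. TUs were called by the authors on pooled libraries with a hidden Markov model, annotated with RefSeq and split at internal annotated starts, so TU borders rest on all libraries. For 860 of the 1671 Gm-numbered TUs found in RefSeq, the annotated transcript start was written 1 bp below the RefSeq gene start. Positions of TUs are given as deposited.

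Counts were tested in R 4.3.3 with edgeR 4.0.16 (quasi-likelihood F-test, TMM factors, 1 coefficient per group, 10 libraries in 1 fit) over the 28459 TUs that exceeded 10 fragments in 2 libraries or more. P-values were Benjamini-Hochberg adjusted over all of these, and TUs under 0.05 were called. The standard error of a log2 fold change was its size divided by the square root of F, and CPM used TMM-scaled totals. DESeq2 1.42.0 (the tool, though not the version, of the study), RLE factors, library totals, other filters on low counts, a block for the replicate number, fits restricted to the groups compared and leaving out each library were alternatives. Libraries held 11131490 to 25854106 fragments, and the number of fragments per TU limits the precision.

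The members, lists and motifs were chosen with earlier results of these data known. TUs named in the text were, at each time point, the 4 called down and the 3 called up with the smallest p for which neither depleted library fell within the range of NT. Named as well were the 2 lower and the 2 higher at 6 than at 1 h with the smallest p, the 3 with the highest CPM per kb in NT, and those called at all 4 time points. The remaining TUs down at all 4 time points and the partners of named TUs were added for completeness. The splits by other genes in a TU and by distance of at least 5000 bp were chosen after the data had been seen. Sequences and gene types came from RefSeq on GRCm38.p6. Untagged cells given dTAG-13 were not analysed here.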

Additional observations from a re-analysis of the deposited data

Results flagged for a closer look

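The values here are log2 fold changes at 6 h minus those at 1 h, from the edgeR contrast between these time points, whose libraries exclude NT. They were picked out because the effects at both time points differed by this test. Levels lower at 6 h were found for Gm35545 (-3.43), Gm281 (-2.466), Gm36038 (-1.412), Gm41312 (-1.07), Gm32534 (-0.7734), Gm34505 (-0.4705) and Gm40235 (-0.4444). Levels higher at 6 h were found for Gm8439 (2.49) and Gm32085 (1.027). The values of Gm34505 and Gm40235 were no longer called without any 1 of the 4 libraries compared, and that of Gm41312 without 1 h replicate 2 or 6 h replicate 1. No group has enough libraries for a test of single outlying samples.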

How the results depend on the processing

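No called change of a named TU reversed under any alternative run, but the medians at 0.5 and 6 h changed sign when some single libraries were left out, and that at 0.5 h was 0.0171 with a mean of at least 50 counts. With the replicate block, 57 Gm-numbered TUs were down and 43 up at 0.5 h, 147 and 78 at 1 h, 216 and 140 at 2 h, and 281 and 156 at 6 h. Of these calls, 57%, 65.3%, 60.7% and 64.3% were decreases. The block also gave 444 in the joint test, 75 higher and 125 lower at 6 than at 1 h, and 54 down and 13 up at all 4 time points. Deviations of same-numbered libraries from their group means correlated at r of 0.05436 to 0.66313 across TUs (0.19726 to 0.43052 for NT with the depleted groups), under 0.1 only between 0.5 and 6 h and between 2 and 6 h. Nothing in the labels says that a number marks a shared batch, so whether the libraries are paired was not settled. DESeq2 called 13 up at 0.5 h. With library totals, 2 were up at all 4 time points, 5, 19 and 42 were up at 0.5, 1 and 2 h, and medians were -0.1584, -0.163 and -0.1342 at 1, 2 and 6 h. Decreases were then 79.2%, 85.3%, 80.2% and 78.4% of the calls. With a mean of at least 50 counts, for which 835 Gm-numbered TUs remained in the test, 60 were down at 1 h and 47 up at 6 h, 162 were called jointly, 15 were higher at 6 than at 1 h, 16 were down and 4 up at all 4 time points, and the median at 6 h was -0.07778. With only the libraries compared, 74 were up at 1 h (decreases 58.2% of calls), 45 were higher and 92 lower at 6 than at 1 h, 3 were up at all 4 time points, and the median at 6 h was -0.02836. That median was -0.01469 with DESeq2, -0.01387 with RLE factors and -0.02199 with no count filter. The cause of these shifts was not tested.

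Leaving out 1 library at a time gave 6 to 26 down and 0 to 11 up at 0.5 h, 43 to 100 and 10 to 47 at 1 h, 74 to 145 and 25 to 83 at 2 h, and 113 to 212 and 33 to 109 at 6 h. The joint test called 159 to 286, with 7 to 30 higher and 19 to 64 lower at 6 than at 1 h. Medians ran from -0.04113 to 0.04141 at 0.5 h, -0.104 to -0.01541 at 1 h, -0.1451 to -0.01328 at 2 h and -0.06482 to 0.01142 at 6 h. Of 117 calls of named TUs, 111 of the 114 that could be tested were kept with DESeq2, 117 with RLE factors and with the block, 113 with library totals, 116 with no count filter and with only the libraries compared, and 96 of 98 with the higher count filter. Leaving out 1 library kept 95 without NT replicate 2, 103 without NT replicate 1 or either 0.5 h library, and 108 to 117 without any other library.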
